A study of Homo sapiens with 66 samples.

Results

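The 9 genes described here encode members of the AP-1 transcription factor family: JUN, JUNB, JUND, FOS, FOSB, FOSL1, FOSL2, ATF3 and BATF3. Binding of the hypoxia-inducible factor (HIF) near them was read from 50 ChIP-seq peak lists, each a list of genome intervals (hg19) enriched in 1 library. A peak was given to a gene when its centre lay in the gene body or within 50 kb of a transcription start site (TSS) of the gene, and nearer to it than to any other protein-coding gene. By this rule 209 of the 131425 peaks, and 209 of the 94844 that were given to any of 19820 genes, belonged to the 9 AP-1 genes.

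AP-1 is a dimer of basic leucine zipper proteins of the Jun, Fos, ATF and BATF families, and the classical AP-1 element reads TGAGTCA. Several of its genes, JUN and FOS among them, are immediate early genes, transcribed within minutes of a growth or stress signal without new protein synthesis. HIF is a dimer of an oxygen-regulated subunit, HIF-1α or HIF-2α, with the constitutive subunit HIF-1β, and binds the hypoxia response element (HRE), whose core reads ACGTG or GCGTG. The von Hippel-Lindau protein, VHL, directs HIF-α for destruction when oxygen is present.

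The study's experiments, of 3 kinds, supplied the libraries, each with an antibody to each of the 3 subunits and 2 libraries per antibody and condition. In 24 libraries, HKC-8 cells, an immortalised human proximal tubular kidney line, were held in 0.5% oxygen (6 h, 16 h or 48 h) or in 3% oxygen (6 h). In 14 libraries, wild-type (WT) HKC-8 cells and HKC-8 cells lacking HIF-1α (HIF-1α KO) or HIF-2α (HIF-2α KO) were held at 0.5% oxygen for 16 h. Each knockout was 1 CRISPR-Cas9 clone, so genotype and clone cannot be told apart, and the antibody against the deleted subunit was not used in that clone. In 12 libraries, the lines were RCC4, a VHL-defective kidney carcinoma line kept in normoxia, and HepG2, a hepatocellular carcinoma line held at 0.5% oxygen for 16 h. Nothing in the labels says whether replicates came from separate cultures, so the p-values below measure the spread between these libraries, which may be technical.

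The lists held 237 to 1793 peaks in the oxygen and time libraries, 915 to 8279 in the knockout libraries and 911 to 6851 in the cell line libraries. Read depths behind the lists are not given in the sources used here. The 2 replicates of a group shared 6.43 to 61.1% of the shorter list in the oxygen and time libraries. The range was 71.6 to 87.1% in the knockout libraries and 25.9 to 54.2% in the cell line libraries. Each peak carries a MACS score of at least 50, here turned into its percentile within its own list, where 100 is the strongest peak. The percentile puts lists on 1 scale but still depends on their length. With HIF-1β, for example, JUN stood 123 from the top of 911 peaks in 1 RCC4 library, a percentile of 86.6. In 1 WT library it stood 231 from the top of 6199 peaks, a percentile of 96.3. A gene without a peak in a library was set to 0. Of the HepG2 lists, the one labelled HIF-1α replicate 2 shared 50.05% of the shorter list with the one labelled HIF-2α replicate 1 and 34.9% with the other HIF-1α list, while the HIF-2α lists shared 25.9% with each other. HepG2 values for HIF-1α and HIF-2α are therefore given as those of the libraries so labelled, and the isoform differences, the HIF-1β overlap and the HepG2 contrasts of FOS, JUND and BATF3 are also given without them.

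The sequence at the centre of 6 sites that the results below turn on is shown first, to show whether and where an HRE core lies there. Each line gives 201 bases of GRCh37, plus strand, centred on the median peak centre. Capitals mark an HRE core (ACGTG or GCGTG, either strand) or an AP-1 element (TGAGTCA or TGACTCA, either strand).
JUN, 28.4 kb downstream of its TSS (chr1:59221216-59221416): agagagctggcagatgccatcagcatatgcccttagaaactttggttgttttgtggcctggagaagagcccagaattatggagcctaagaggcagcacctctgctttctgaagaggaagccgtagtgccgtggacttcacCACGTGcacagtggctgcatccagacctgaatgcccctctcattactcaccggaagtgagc
FOS, 23.8 kb upstream (chr14:75721590-75721790): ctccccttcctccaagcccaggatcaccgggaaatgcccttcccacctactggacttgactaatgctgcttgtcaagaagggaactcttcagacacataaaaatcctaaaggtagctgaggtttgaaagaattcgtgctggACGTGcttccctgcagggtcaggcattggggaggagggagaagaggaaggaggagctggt
FOS, 19.4 kb upstream (chr14:75726015-75726215): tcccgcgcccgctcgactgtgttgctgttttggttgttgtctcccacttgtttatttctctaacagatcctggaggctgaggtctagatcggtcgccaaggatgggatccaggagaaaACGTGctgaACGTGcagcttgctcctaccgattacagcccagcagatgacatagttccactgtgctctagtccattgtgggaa
FOSL2, promoter (chr2:28615483-28615683): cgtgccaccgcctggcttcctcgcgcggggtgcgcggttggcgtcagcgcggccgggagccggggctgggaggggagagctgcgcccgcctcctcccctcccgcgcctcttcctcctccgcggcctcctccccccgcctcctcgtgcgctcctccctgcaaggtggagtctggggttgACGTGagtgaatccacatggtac
FOSL2, intron, 13.9 kb downstream of the nearest TSS (chr2:28632207-28632407): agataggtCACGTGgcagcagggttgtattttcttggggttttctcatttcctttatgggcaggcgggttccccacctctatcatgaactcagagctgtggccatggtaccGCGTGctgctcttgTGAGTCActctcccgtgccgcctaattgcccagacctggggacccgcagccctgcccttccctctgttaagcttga
BATF3, 32.1 kb downstream (chr1:212840934-212841134): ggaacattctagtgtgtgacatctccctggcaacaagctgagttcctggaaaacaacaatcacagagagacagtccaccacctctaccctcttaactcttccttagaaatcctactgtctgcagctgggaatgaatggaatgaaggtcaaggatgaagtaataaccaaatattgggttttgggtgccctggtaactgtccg
The JUN site and the FOSL2 intron site hold the palindrome CACGTG, which reads ACGTG on both strands. The FOS site 19.4 kb upstream holds 2 separate ACGTG cores. The FOSL2 intron site also holds a GCGTG core 13 bp from its centre and a TGAGTCA element 28 bp from it. The BATF3 site holds none of these letters in the window shown.

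Across all libraries, JUN was the AP-1 gene called most often. It had a peak in 40 of the 50 libraries, followed by FOSL2 in 34, FOS in 18, BATF3 in 16, FOSL1 in 10, ATF3 in 9, JUND in 7, JUNB in 5 and FOSB in 1. Only 64 of the 19820 genes were called in more libraries than JUN, and 149 in more than FOSL2. The median gene was called in 1 library. All 9 AP-1 genes had a peak in at least 1 library, as 61% of all genes did, and 8 of them, all but FOSB, had one in both replicates of at least 1 group, as 25.9% of all genes did. For JUNB the peaks of the 2 replicates lay at different sites. The stretch of genome whose peaks the rule gives to a gene was 92.0 kb long for JUN, longer than for 71.3% of genes, and 11.7 kb for JUNB, longer than for 10.9% of genes. The part of this length in the counts was not tested.

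**Figure D1:**
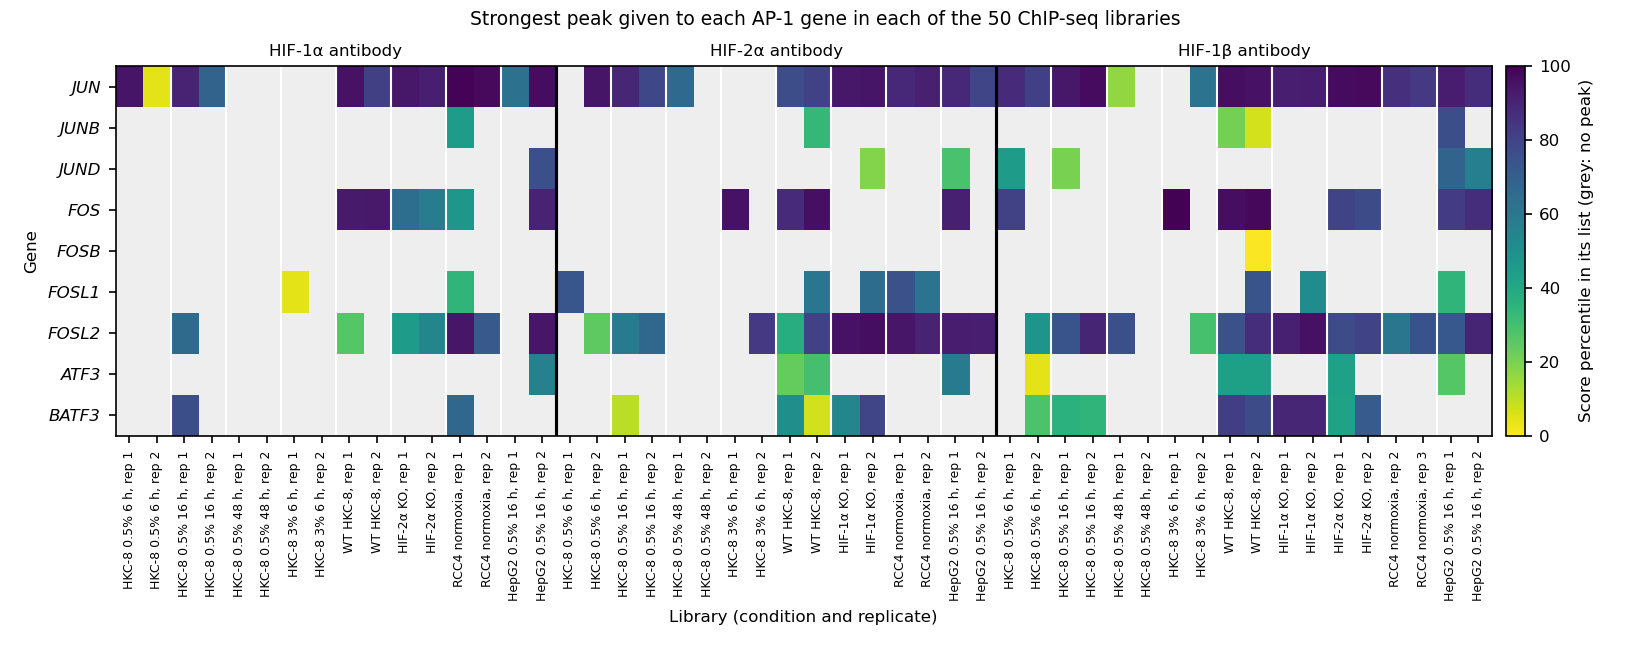
The score percentile of the strongest peak given to each of the 9 AP-1 genes (rows) in each of the 50 libraries (columns, grouped by antibody), on a scale from 0 to 100, with grey where no peak was called. JUN is filled in 40 columns and FOSL2 in 34, whereas FOSB is filled in 1.

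JUN, the prototype Jun subunit, lies on chromosome 1 (chr1:59242517-59249720, minus strand). Its calls came mainly from the site 28.4 kb downstream of the TSS (chr1:59220573-59222390), which lies in an intron of the long non-coding RNA gene ENSG00000283445. This site was called in the same 40 libraries as the gene itself: 12 of 16 with HIF-1α, 12 of 16 with HIF-2α and 16 of 18 with HIF-1β. Its median percentile over those libraries was 90.6, and it was called in both replicates of 18 of the 25 groups. The lowest value, 4.13, was in 1 HIF-1α library at 0.5% oxygen for 6 h, whose replicate stood at 94.5. None of the 18 libraries from RCC4, HepG2 and the WT cells grown beside the knockout clones lacked the site. Non-coding genes were not among the candidates of the rule: when the TSSs of all annotated transcripts were allowed, the 40 peaks went to the non-coding gene AL136985.1. The JUN promoter itself was called less often. A site centred 0.621 kb upstream of the TSS (chr1:59248012-59251884, in exons of the long non-coding genes LINC01135 and ENSG00000290013) was called in 12 libraries, with a median percentile of 47.7, and none of the 24 oxygen and time libraries was among them. The other 4 JUN sites were called in 1 or 2 libraries each.

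FOSL2, which encodes the Fos-related subunit Fra-2, was the second most often called (chr2:28615315-28640184, plus strand). Its intron site (chr2:28631154-28634039) was called in 29 libraries and its promoter site (chr2:28612618-28616860, intron of FOSL2 and of its antisense gene FOSL2-AS1) in 23. When the TSSs of all annotated transcripts were allowed, the 29 peaks of the intron site went to the gene ENSG00000270640, leaving FOSL2 with 35 peaks. The intron site stood in all 6 RCC4 libraries, with percentiles from 57.6 to 94.1, and in none of the 6 HepG2 libraries. The promoter site stood in 5 of 6 HepG2 libraries, with percentiles from 72.5 to 94.1, and the only other FOSL2 site called in HepG2, 14.3 kb upstream, stood at 48.8 in 1 library labelled HIF-1α. The intron site was thus called in RCC4 and HKC-8 and the promoter site in all 3 lines, and the difference between the sites was not tested. A further site 36.5 kb upstream (chr2:28577850-28580397, intergenic) was called in 7 libraries, all of them WT or HIF-1α KO cells of the knockout experiment and none of them with the HIF-1α antibody.

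FOS, the prototype Fos subunit (chr14:75745529-75748933, plus strand), was called mainly at 2 upstream sites inside an intron of the long non-coding gene ENSG00000258740. These were centred 23.8 kb (chr14:75720844-75722845) and 19.4 kb (chr14:75725191-75727442) upstream of the nearest TSS, and were called in 13 and 14 libraries. The nearer one also overlapped an exon of the non-coding gene ENSG00000258820, and with the TSSs of all annotated transcripts both sites went to non-coding genes, leaving FOS with 3 peaks. A weaker site between them, 21.0 kb upstream (chr14:75723829-75725140), was called in both WT HIF-1β libraries at 2.63 and 34.3. In WT cells of the knockout experiment, the site at 23.8 kb stood at percentiles 92.6 and 93.1 with HIF-1α, 83.4 and 95.8 with HIF-2α, and 96.3 and 98.0 with HIF-1β. It ranked 166 from the top of the 8279 peaks in the second HIF-1β library. Neither site was called in any of the 24 oxygen and time libraries, 6 of which came from HKC-8 cells under the same 0.5% oxygen for 16 h and held 951 to 1793 peaks. The FOS coding region was called in 3 libraries only, all replicate 1 at 6 h, as a peak of 209 to 236 bp centred 0.628 kb downstream of the nearest TSS. Its percentile was 80.5 with HIF-1β at 0.5% oxygen, 99.5 with HIF-1β at 3% and 95.2 with HIF-2α at 3%, and it was absent from replicate 2 of each. A site 6.32 kb downstream (chr14:75752648-75753663, intergenic) was called in 4 libraries, all HepG2.

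The remaining members were called less. BATF3, required for the development of cross-presenting dendritic cells, lies on the minus strand (chr1:212859759-212873182). Its main site, 32.1 kb downstream of the TSS (chr1:212840300-212841727, intergenic), was called in 11 libraries, all HKC-8, of which 7 were HIF-1β, 4 HIF-2α and 0 of 16 HIF-1α. With the TSSs of all annotated transcripts BATF3 kept 4 of its 16 peaks. FOSL1, which encodes Fra-1, had a site 2.68 kb upstream (chr11:65669585-65671411, intergenic) in 8 libraries, of which 5 were HIF-2α and 2 HIF-1β, and the 1 HIF-1α library was RCC4. ATF3, a stress-induced factor, had a promoter site (chr1:212781128-212782986) in 6 libraries, 4 of them HIF-1β, and a site 12.6 kb upstream of the nearest TSS (chr1:212769099-212770006), both in ATF3 introns, the second in 3 libraries, all WT. JUND, a Jun subunit made constitutively in many cells, was called at its promoter (chr19:18392083-18393530) in 6 libraries, 4 of them HepG2. JUNB had its most frequent site 4.8 kb downstream (chr19:12906571-12907657, intron of HOOK2) in 3 libraries. FOSB, the remaining Fos subunit, had 1 peak at percentile 0.64, in 1 WT HIF-1β library.

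**Figure D2:**
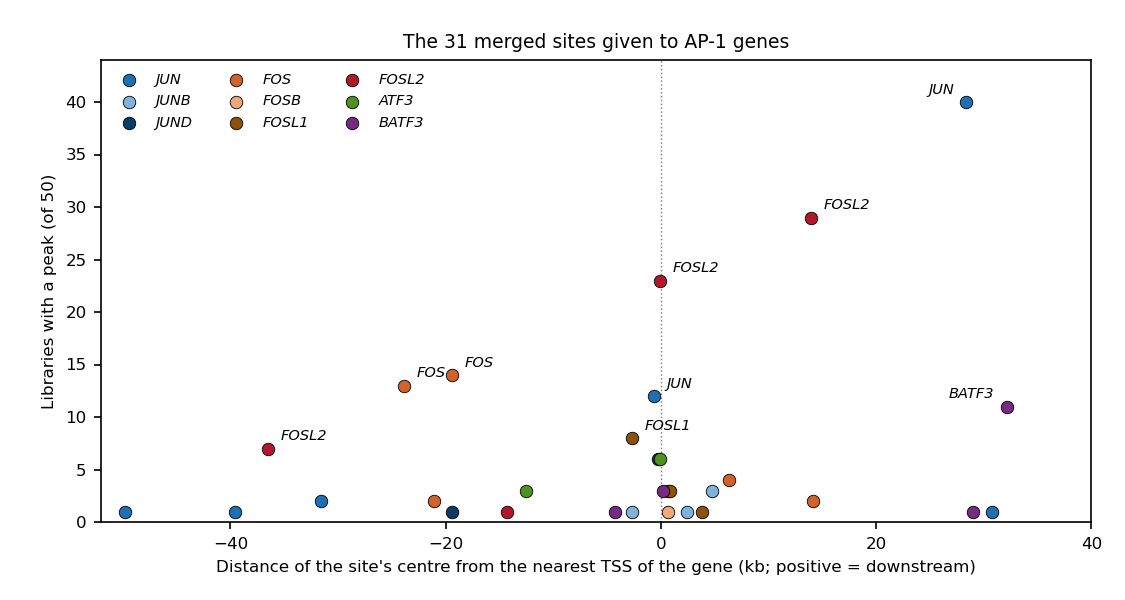
The 31 sites made by merging overlapping AP-1 gene peaks, by the distance of their centre from the nearest TSS of the gene (x axis, kb, positive downstream) and the number of the 50 libraries that called them (y axis). Of the 4 sites called in most libraries, 1, the FOSL2 promoter, lies within 1 kb of a TSS.

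Of the 31 sites, 13 were called in both replicates of at least 1 group, 11 were called in 1 library, and 8 lay within 1 kb of a TSS. Among member peaks 26.3% lay within 1 kb of a TSS, beside 23.9% of all peaks given to genes. By antibody the shares were 20.8% beside 32.5% for HIF-1α, 23.1% beside 15.04% for HIF-2α and 31.2% beside 26.2% for HIF-1β. The first 2 include the HepG2 libraries as labelled, and shares without them are not given here. Of all peaks in those lists, 6.71% and 28.6% lay within 1 kb in the libraries labelled HIF-1α. In those labelled HIF-2α, 30.6% and 8.07% did. No test was made of these shares, since peaks at the same site in several libraries are not independent.

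The HRE core stood within 100 bp of the centre in 16 of the 31 sites (51.6%, 95% exact binomial interval 33.1 to 69.8%). The share of all 50169 merged sites, 34.0%, lies inside this interval. Among the 13 sites called in both replicates of a group it stood in 9 (69.2%), beside 59.9% of all such sites, which lies inside the interval of 38.6 to 90.9%. The AP-1 element (TGAGTCA or TGACTCA) stood in 2 of the 31 sites (6.45%) beside 7.98% of all sites, and the full cyclic AMP response element (TGACGTCA) in 1, the JUND promoter, beside 0.221%. The JUN site 28.4 kb downstream held CACGTG 42 bp from its centre, and the FOSL1 site 2.68 kb upstream held no core.

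In the 9 conditions, the number of the 9 AP-1 genes called in both replicates ranged from 0 to 6. The highest count was with HIF-1β in WT cells of the knockout experiment, where JUN, JUNB, FOS, FOSL2, ATF3 and BATF3 were called, beside 13.8% of all genes. The JUNB and ATF3 calls there rested on a different site in each replicate, so 4 of the 6 genes had a site called in both. With HIF-2α in the same cells 5 were called (JUN, FOS, FOSL2, ATF3 and BATF3), beside 9.73%, and with HIF-1α 2 (JUN and FOS), beside 3.95%. In HKC-8 cells at 0.5% oxygen for 16 h in the other experiment, the counts were 3 with HIF-1β (beside 3.31%), 2 with HIF-2α (beside 1.36%) and 1 with HIF-1α (beside 1.33%). They were JUN, FOSL2 and BATF3, JUN and FOSL2, and JUN, and the BATF3 call rested on a different site in each replicate. In RCC4, JUN and FOSL2 were called with HIF-1α (beside 4.32%) and with HIF-1β (beside 1.92%), and FOSL1 was added with HIF-2α (beside 4.42%). In HepG2, JUN, JUND, FOS and FOSL2 were called with HIF-1β (beside 9.49%), JUN alone in the libraries labelled HIF-1α (beside 5.54%), and JUN and FOSL2 in those labelled HIF-2α (beside 5.79%). At 0.5% oxygen for 6 h, JUN was the 1 gene called with HIF-1α (beside 1.04%) and with HIF-1β (beside 1.78%), and none was called with HIF-2α (beside 1.25%). At 48 h none was called, beside 0.54%, 0.247% and 1.12% of all genes for HIF-1α, then HIF-2α, then HIF-1β, and at 3% oxygen none, beside 0.388%, 0.53% and 1.52%. In the HIF-1α KO clone JUN, FOSL2 and BATF3 were called with HIF-2α (beside 11.4%) and again with HIF-1β (beside 8.09%). In the HIF-2α KO clone JUN, FOS and FOSL2 were called with HIF-1α (beside 2.69%), and these and BATF3 with HIF-1β (beside 5.57%). JUN was among the genes called in 18 of the 25 groups.

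**Figure D3:**
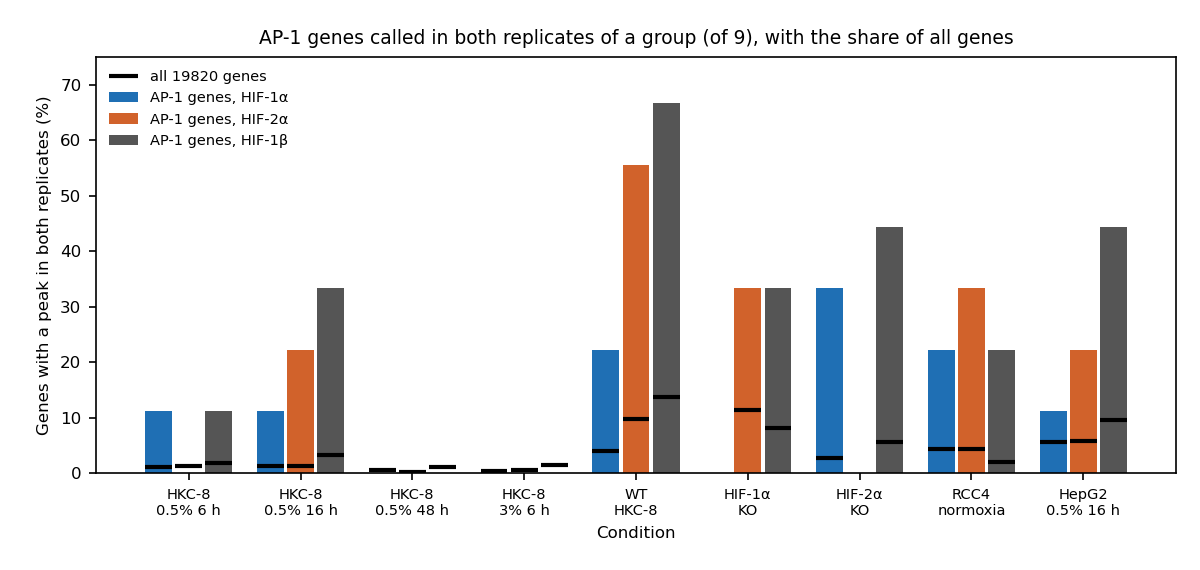
The percentage of the 9 AP-1 genes with a peak in both replicates (bars, coloured by antibody) and of all 19820 genes (black lines) in each condition; the knockout clones have no bar for the antibody against the deleted subunit, and at 48 h and 3% oxygen all bars are at 0. The highest bar is HIF-1β in WT cells, with 6 of the 9 genes beside 13.8% of all genes.

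Whether the 2 HIF-α isoforms differed at these genes was asked in the 7 conditions assayed with both antibodies, as the mean over conditions of the HIF-1α minus the HIF-2α percentile. FOSL2 had the largest difference among the 6 members tested. It was called in 5 of 14 HIF-1α libraries and 10 of 14 HIF-2α libraries, with mean percentiles of 25.1 and 51.4, and was lower with HIF-1α in 6 of 7 conditions and higher in 0. In WT cells the HIF-1α libraries stood at 26.5 and 0 and the HIF-2α libraries at 37.8 and 80.6. The value of 80.6 was the promoter site, and 26.5 and 37.8 the intron site. The WT lists held 1913 and 1535 peaks with HIF-1α beside 4537 and 6749 with HIF-2α. At 0.5% oxygen for 16 h the antibodies overlapped, at 65.5 and 0 beside 58.4 and 66.6. At 6 h the difference rested on 1 HIF-2α library at 0.5% oxygen, at 24.7, and 1 at 3%, at 83.4. In RCC4 the intron site stood at 90.2 and 72.1 with HIF-1α and 94.1 and 90.2 with HIF-2α. The RCC4 promoter site went the other way, at 93.9 and 71.8 with HIF-1α and 82.3 and 22.5 with HIF-2α. The difference of -26.3 had an exact permutation p of 0.01 and a Benjamini-Hochberg adjusted p of 0.167 over 3504 genes, and so did not pass the threshold of 0.05. It was -23.2 without HepG2, with an adjusted p of 0.108 in the same exact test. Leaving out each of the 28 libraries in turn gave -33.0 to -19.6, with an adjusted p from 0.0589 to 0.326.

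No member passed the adjusted threshold, beside 0.799% of genes that were higher with HIF-1α and 1.17% that were higher with HIF-2α. By the unadjusted p, FOSL2 was the only member at or under 0.05, beside 8.82% of genes in that direction and 4.31% in the other. JUN was called in 10 of 14 libraries with either antibody, with mean percentiles of 56.3 with HIF-1α and 59.4 with HIF-2α and an adjusted p of 0.96 in the exact permutation test. FOS was called in 4 of 14 with either, at 23.1 and 26.4, with an adjusted p of 0.958 in the same exact test. FOSL1 was called in 2 of 14 HIF-1α libraries and 4 of 14 HIF-2α libraries, at 2.74 and 19.4, with an adjusted p of 0.397 in the same exact test. ATF3 and BATF3 differed by -3.92 and 5.39 percentile points, with adjusted p of 0.783 and 0.831 in the same exact test. Without HepG2 the differences were -2.93 for JUN, -3.84 for FOS, -19.4 for FOSL1 and 6.29 for BATF3, and ATF3 was called in too few libraries to be tested. A p above the threshold does not show that the isoforms bound these genes alike. JUNB, JUND and FOSB were called in fewer than 4 of the 28 libraries and were not tested.

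**Figure D4:**
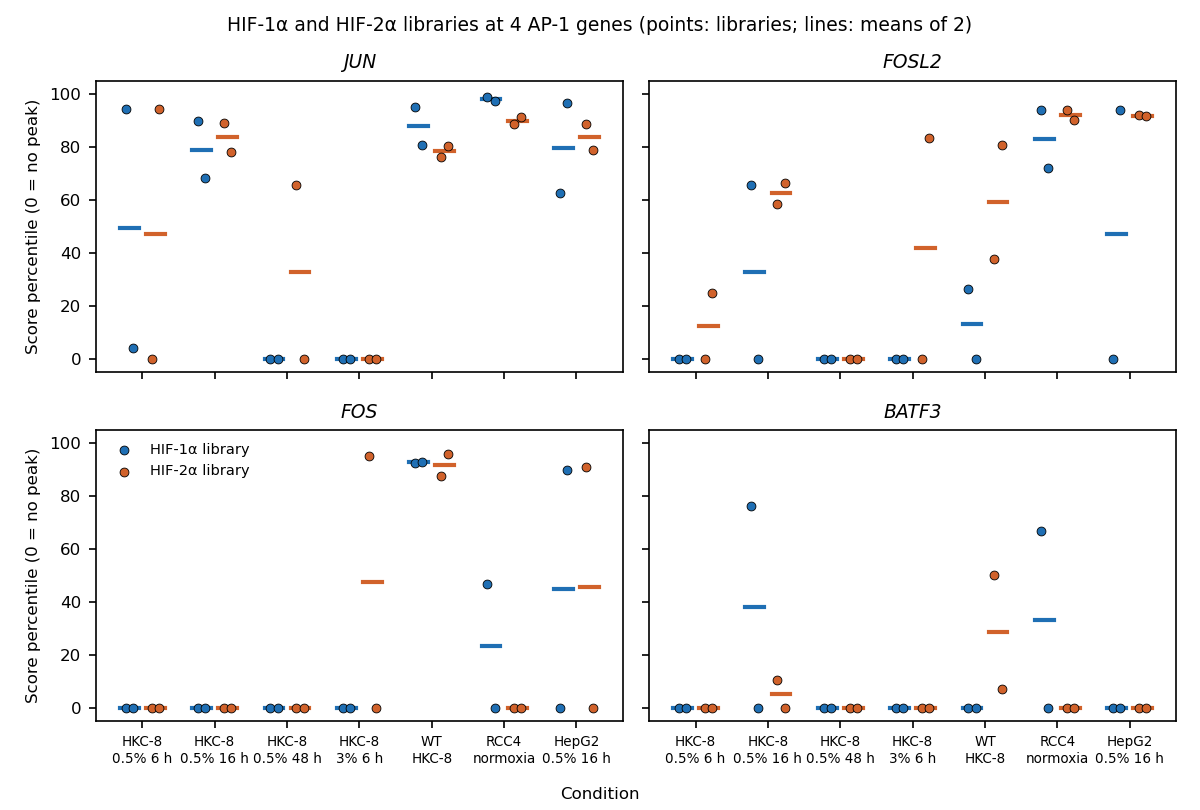
Score percentiles (y axis, 0 where no peak was called) of JUN, FOSL2, FOS and BATF3 in the HIF-1α (blue) and HIF-2α (orange) libraries of the 7 conditions assayed with both antibodies; points are libraries and lines are means of 2. The HIF-2α mean of FOSL2 lies above the HIF-1α mean in 6 of 7 conditions, and the means of JUN lie above each other in either order.

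In WT cells taken alone, ATF3 and BATF3 were called in both HIF-2α replicates and neither HIF-1α replicate, a pattern shown by 4.9% of all genes. JUN and FOS were called in both replicates of both, as 3.13% of genes were, and these 2 genes were also called in both HIF-1β replicates, as 3.12% of genes were for all 3 antibodies. No AP-1 gene was called in both HIF-1α replicates and neither HIF-2α replicate there, beside 0.494% of genes.

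The knockout experiment asked whether one isoform's binding depends on the other. FOS lost its calls in the HIF-1α KO clone. With HIF-2α its strongest peak stood at percentiles 87.7 and 95.8 in the 2 WT libraries and was absent from both HIF-1α KO libraries, whose lists of 5228 and 6540 peaks were about as long as the WT lists of 4537 and 6749. With HIF-1β it stood at 96.3 and 98.0 in WT and was again absent from both HIF-1α KO libraries. ATF3 showed the same pattern at lower percentiles with HIF-2α, at 23.7 and 29.3 in WT at the site 12.6 kb upstream and with no peak in the clone. With HIF-1β the WT peaks of ATF3, at 43.2 and 43.3, and of JUNB, at 20.9 and 6.81, were also absent from the clone, but each pair came from different sites in the 2 replicates, so no ATF3 or JUNB site was called in both. The pattern, both WT libraries and neither HIF-1α KO library, was shown by 0.918% of all genes with HIF-2α, against 2 members, and by 3.68% with HIF-1β, against 3 members, of which FOS alone had a site called in both WT replicates. With 2 libraries against 2 the smallest 2-sided p that an exact permutation test allows is 0.333, so this test cannot pass the threshold here. The HIF-1β lists were also shorter in the clone, at 3387 and 5786 peaks beside 6199 and 8279, and the part of this was not tested.

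In the HIF-2α KO clone FOS kept calls in both replicates with both antibodies used there. With HIF-1α its strongest peak stood at 63.9 and 57.7, below the WT values of 92.6 and 93.1, and with HIF-1β at 79.6 and 77.3, below the WT values of 96.3 and 98.0. These WT values were the site 23.8 kb upstream. At the site 19.4 kb upstream, WT stood at 84.1 in 1 HIF-1α library and was not called in the other. With HIF-1β that site stood at 78.2 and 77.3 in the clone and 92.9 and 86.9 in WT. The site 23.8 kb upstream stood at 79.6 and 16.7 with HIF-1β in the clone. The site 23.8 kb upstream was at 0.944 in 1 HIF-1α library of this clone and absent from its replicate, so the calls with HIF-1α came from the site 19.4 kb upstream. No AP-1 gene was called in both WT replicates and neither HIF-2α KO replicate with HIF-1α (beside 0.858% of genes), and 1, JUNB, was with HIF-1β (beside 5.61%), from different sites in the 2 WT replicates. The lists of this clone were shorter than in WT, at 1271 and 915 peaks beside 1913 and 1535 with HIF-1α.

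JUN was called in all 14 libraries of the experiment. With HIF-2α it stood at 76.3 and 80.6 in WT and higher, at 93.6 and 94.2, in the HIF-1α KO clone. With HIF-1β it stood at 96.3 and 95.3 in WT and lower, at 91.7 and 91.9, in the same clone. The share of all genes that separate so is not given here. With HIF-1α it stood at 95.2 and 81.0 in WT and at 93.4 and 91.6 in the HIF-2α KO clone, which overlapped. FOSL2 also stood higher with HIF-2α in the HIF-1α KO clone, where its strongest peak was at 95.2 and 96.2, against 37.8 and 80.6 in WT. The WT value of 80.6 was the promoter site, and at the intron site, which gave the other 3 values, WT stood at 37.8 and 69.9. BATF3 did as well, at 54.2 and 79.0 against 50.2 and 6.89. The mean difference was 15.5 percentile points for JUN, 36.4 for FOSL2 and 38.0 for BATF3, while the median over 3999 genes was 2.19. With HIF-1α FOSL2 stood higher in the other clone too, at 44.5 and 54.2 against 26.5 and 0 in WT. The value of 54.2 was the promoter site, and 44.5 and 26.5 the intron site. With HIF-1β the FOSL2 mean was 78.4 in that clone and 81.1 in WT. Genes called in both replicates of WT and of the clone were JUN, FOSL2 and BATF3 with HIF-2α in the HIF-1α KO clone (beside 7.74% of all genes) and the same 3 with HIF-1β (beside 7.15%). In the HIF-2α KO clone they were JUN and FOS with HIF-1α (beside 2.12%), and these with FOSL2 and BATF3 with HIF-1β (beside 5.13%). None was called in both replicates of a clone and neither of WT, beside 1.62% and 0.313% in the HIF-1α KO clone with HIF-2α and HIF-1β, and 0.202% and 0.0807% in the HIF-2α KO clone with HIF-1α and HIF-1β.

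**Figure D5:**
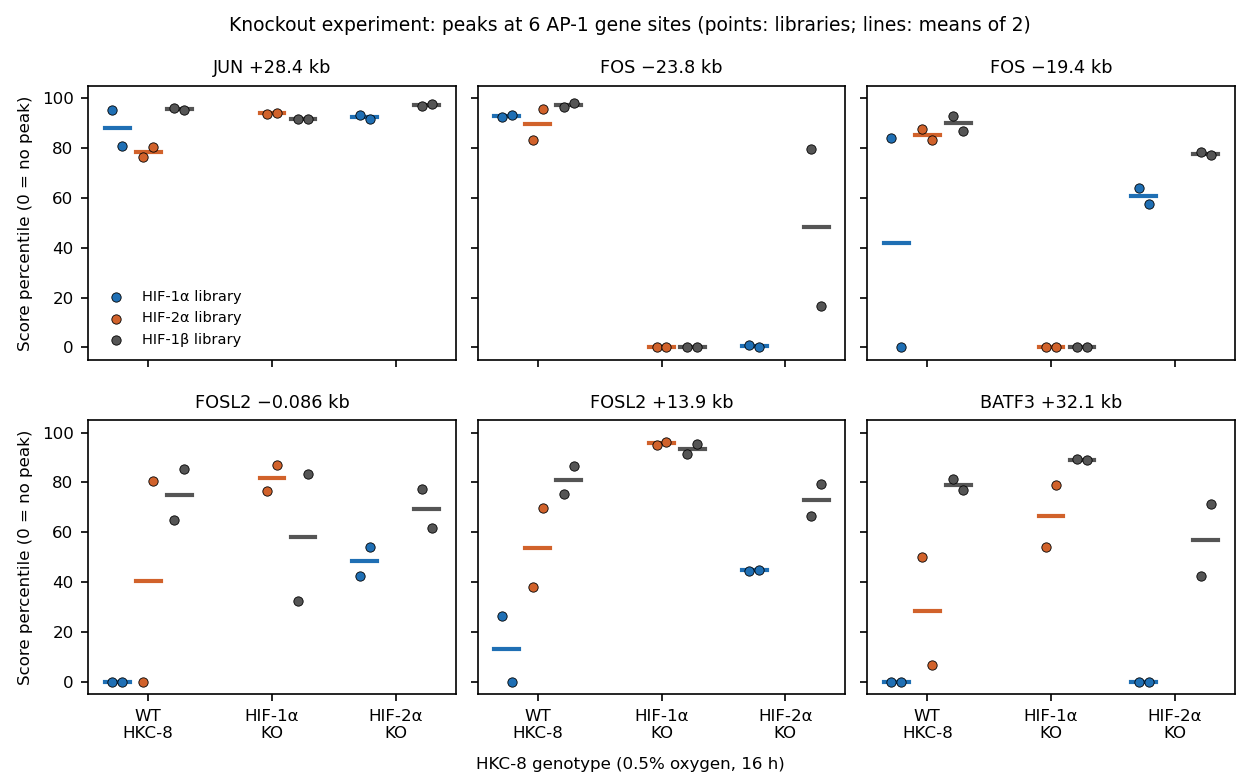
Score percentiles (y axis, 0 where no peak was called) at 6 AP-1 gene sites in WT, HIF-1α KO and HIF-2α KO HKC-8 cells, by antibody; points are libraries and lines are means of 2, and the antibody against a deleted subunit was not used. Both FOS sites are at 0 in the 4 HIF-1α KO libraries, whereas the JUN site lies between 76.3 and 97.6 in all 14 libraries.

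Severity and duration of hypoxia were compared within each antibody in the 24 oxygen and time libraries, and all 3 contrasts share the 6 libraries at 0.5% oxygen for 6 h. Replicates overlapped little in part of these groups. With HIF-1α they shared 6.43% of the shorter list at 48 h, 7.16% at 3% oxygen and 12.6% at 0.5% oxygen for 6 h. JUN was called in 5 of 6 libraries at 0.5% oxygen for 6 h and in 1 of 6 at 3%, that 1 being a HIF-1β library at 61.8. The mean percentiles were 60.3 and 10.3, and the value at 3% was lower with each of the 3 antibodies. The difference of -50.0 had an exact permutation p of 0.0278 and an adjusted p of 0.561 over 848 genes, of which 4.83% were lower at 3% with an unadjusted p of at most 0.05. The lists at 3% were shorter, with 558 to 1223 peaks beside 1271 to 1496, and with lists cut to equal length the difference was -49.3.

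At 16 h JUN was called in 6 of 6 libraries, and at 48 h in 2 of 6, with mean percentiles of 86.0 and 13.7. Against 6 h these means differed by 25.7 and -46.7, with exact permutation p of 0.315 and 0.0556. FOSL2 was called in 5 of 6 libraries at 16 h and 2 of 6 at 6 h, with means of 59.1 and 12.1. Its difference of 46.9 had an exact permutation p of 0.0278 and an adjusted p of 0.582 over 1096 genes, of which 3.01% were higher at 16 h with an unadjusted p of at most 0.05. BATF3 was called in 4 of 6 libraries at 16 h and 1 of 6 at 6 h, with an exact permutation p of 0.0833. Its 16 h calls came from sites 0.244 kb, 29.0 kb and 32.1 kb downstream of the TSS, and its 6 h call from a site 4.29 kb upstream. No BATF3 site was called in both replicates of a group in this experiment. None of the members passed the adjusted threshold in any of the 3 contrasts, nor did any other gene, the smallest adjusted p being 0.561. Unadjusted, JUN at 3% oxygen and FOSL2 at 16 h were at or under 0.05, beside 42, 37 and 25 of all genes at 3%, 16 h and 48 h. The 48 h lists included the shortest of all, with 237 peaks.

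Between RCC4 and HKC-8, FOS had the largest difference of the 7 members tested. Its strongest peak stood between 87.7 and 98.0 in the 6 WT HKC-8 libraries of the knockout experiment. No FOS peak was called in 5 of the 6 RCC4 libraries. The sixth, a HIF-1α library, stood at 46.9, at a site 14.1 kb downstream. The mean percentiles were 93.9 and 7.82, so RCC4 was lower in every antibody and no value overlapped. The exact permutation p of 0.00926 is the smallest that the design allows, and the adjusted p was 0.113 over 3416 genes, of which 15% were lower in RCC4 with an unadjusted p of at most 0.05. Every gene at that smallest p shares this adjusted p, so it does not rank FOS above them. In the 6 HKC-8 libraries of the oxygen and time experiment at 0.5% oxygen for 16 h, FOS was called in 0 of 6, so a FOS call also separated HKC-8 libraries of the same oxygen and time by experiment. In HepG2, FOS was called in 4 of 6 libraries, both HIF-1β libraries among them at 82.3 and 87.0, with a mean of 58.4, an exact permutation p of 0.037 and an adjusted p of 0.147 over 4716 genes, of which 12.4% were lower in HepG2 with an unadjusted p of at most 0.05. With a 10 kb window, which leaves out both upstream sites, the direction turned (a difference of 48.2, adjusted p of 0.161 in the exact permutation test). Its HepG2 calls with HIF-α came from the libraries labelled HIF-1α replicate 2 and HIF-2α replicate 1. With HIF-1β alone, the FOS difference was -12.5. The HepG2 value of 82.3 was the site 23.8 kb upstream, and 87.0 the site 6.32 kb downstream, which was called only in HepG2. At the site 23.8 kb upstream the HepG2 HIF-1β libraries stood at 82.3 and 86.1, beside 96.3 and 98.0 in WT.

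JUND was called in 4 of 6 HepG2 libraries, with a mean of 38.2, and in no WT HKC-8 library, with an adjusted p of 0.16 in the exact permutation test. With HIF-1β alone, JUND stood at 68.1 and 56.8 in HepG2 and had no peak in WT. BATF3 was called in 4 of 6 WT libraries and 0 of 6 HepG2 libraries (adjusted exact permutation p of 0.147, and a difference of -79.1 with HIF-1β alone), and ATF3 in 4 of 6 WT libraries and 0 of 6 RCC4 libraries (adjusted exact permutation p of 0.166). JUN had mean percentiles of 87.4 in HKC-8, 91.1 in RCC4 and 84.4 in HepG2, with adjusted exact permutation p of 0.542 and 0.731 against HKC-8. FOSL2 stood at 51.2, 81.0 and 73.4 in the same order. No member and no other gene passed the adjusted threshold in either contrast. RCC4 and HKC-8 also differed in oxygen, since RCC4 was kept in normoxia, and nothing in the labels says that the RCC4 and HepG2 libraries were made together with these HKC-8 libraries, so line, oxygen and experiment cannot be told apart.

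Of the 113 HIF-1α or HIF-2α peaks at AP-1 genes, 92 (81.4%, 95% exact binomial interval 73.0 to 88.1%) overlapped a HIF-1β peak of the same condition by at least 1 base, beside 54.0% of all 57124 HIF-α peaks given to genes. In WT cells all 23 did, beside 90.7%. In RCC4 12 of 23 did (52.2%), beside 19.7%, and the RCC4 HIF-1β lists were short, with 911 and 1305 peaks. In HepG2 17 of 22 did (77.3%), beside 56.7%. Without the HepG2 HIF-α libraries the share was 82.4%. The interval covers counting error only, and peaks at the same site are not independent of each other.

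The genes whose percentiles over the 50 libraries followed JUN most closely, among 2432 genes called in at least 10 libraries, were TNIP1 (Spearman's rho of 0.79, Pearson's r of 0.761), POLI (0.785 and 0.544), NREP (0.746 and 0.751), TMEM248 (0.735 and 0.61) and KMT2E (0.733 and 0.59). TNIP1 was called in 42 of the 50 libraries. The points share list length and experiment, and the values are a description.

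Other genes of the AP-1 network were read by the same rule in WT cells, as genes called in both replicates by the HIF-1α, the HIF-2α and the HIF-1β antibody in turn, where 3.95%, 9.73% and 13.8% of all genes were called. Of 24 other bZIP factors, 1, 5 and 9 were called. BACH1, a repressor of haem and antioxidant genes, was called with all 3, at 94.2 and 95.7 with HIF-1α and 100 and 99.7 with HIF-2α. Of 21 JNK and ERK pathway genes, 0, 4 and 5 were called, and none with all 3. Of 14 immediate early genes outside the family, 3, 4 and 4 were called, and IER2, KLF6 and CCN1 with all 3. CCN1, which encodes a matricellular protein, stood at 59.8 and 59.6 with HIF-1α and at 95.7 and 97.8 with HIF-2α. Of 21 known AP-1 targets, 3, 6 and 7 were called. HMOX1, the haem oxygenase 1 gene, was called with all 3, at 81.4 and 57.5 with HIF-1α and 82.9 and 87.4 with HIF-2α, and was also called in both replicates of all 3 antibodies in RCC4 and HepG2.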

How the data were processed

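Per the study's methods and processing notes, reads were trimmed with Trim Galore 0.3.3 and aligned to GRCh37 with BWA 0.7.5a-r405. Poorly mapped reads (SAMtools 0.1.19) and black-listed regions (bedtools 2.17.0) were removed, duplicates marked (Picard 1.106) and peaks called for each library with MACS in control mode. The deposited score of each peak, at least 50, was read as a -10 log10 p, a reading made from the values, and used only to rank peaks within a list. The lists hold no reads, so a site without a peak is only a site not called. Input libraries were not analysed here. The members, gene lists and tests were chosen with earlier results of these data known.

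Peaks were given to genes with GENCODE v44 lifted to GRCh37 (coding transcripts of protein-coding genes). No peak lay beyond a reference chromosome end, over 24 chromosomes, and 294 peaks elsewhere were not given to a gene. Overlapping peaks over all lists were merged into sites. All 9 genes, every member site called in both replicates of a group, the 5 genes closest to JUN and the listed genes called with all 3 antibodies in WT cells are named, except 1 that is not reported here.

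Each gene's strongest percentile (0 if uncalled) was compared by a 2-sided exact permutation test of labels within conditions (279936 arrangements for isoforms) or within antibodies, on genes called in at least 4 of 28 or 3 of 12 libraries (1 of 4 in the knockout contrasts), with Benjamini-Hochberg adjustment over all genes tested. The code was tested on simulated data. Python 3.11.15, numpy 2.4.6, pandas 2.3.3 and scipy 1.17.1 were used. Alternatives were a score of at least 100, TSSs of all transcripts, distance to the gene body, a 10 kb window, equal list lengths, a call in place of the percentile, no gene filter, a replicate block and leaving out libraries. Leaving out each of the 28 isoform libraries, and the HepG2 HIF-1α and HIF-2α libraries, was added after seeing the data. Replicates of 1 group shared at most 0.105% of their intervals exactly, so none was a duplicate.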

Additional observations from a re-analysis of the deposited data

Results flagged for a closer look

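Libraries come in groups of 2, so no library could be tested as an outlier. By percentile, the contrasts of RCC4 with WT HKC-8 went in opposite directions between antibodies at 2 genes. At JUN, every RCC4 library stood above every WT library with HIF-1α (a mean difference of 10.2 percentile points) and with HIF-2α (11.6), and below them with HIF-1β (-10.8). At FOSL2 the same held, with differences of 69.8 (HIF-1α), 32.9 (HIF-2α) and -13.3 (HIF-1β). The difference between antibodies was not tested, and the share of all genes with this pattern is not given here. Over the 3416 genes tested, the median RCC4 minus WT difference was -16.3. With 2 libraries against 2 within 1 antibody, an exact permutation test cannot go below a 2-sided p of 0.333. The RCC4 HIF-1β lists held 911 and 1305 peaks and the WT HIF-1β lists 6199 and 8279. Counted from the top of these lists, JUN stood at places 123 and 219 in RCC4 and 231 and 392 in WT. The strongest FOSL2 peak stood at places 358 and 331 in RCC4 and 1527 and 1095 in WT. By place, then, neither gene stood lower in RCC4 with HIF-1β. The part of list length in the percentile differences was not tested.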

How the results depend on the processing

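The 209 peaks at AP-1 genes became 125 with a score of at least 100, 112 with a 10 kb window and 66 with TSSs of all annotated transcripts. They were 104 to 107 with 1 replicate number left out. With all transcripts, all peaks of the JUN site 28.4 kb downstream and of both FOS upstream sites went to long non-coding genes. The 29 peaks of the FOSL2 intron site went to the gene ENSG00000270640. BATF3 kept 4 of 16 peaks, JUND 2 of 7 and JUNB 0 of 5. The 48 pairs of an AP-1 gene and a group with a call in both replicates became 13 with all transcripts and 23 with the 10 kb window, and 67 to 73, counting a call in the library kept, with 1 replicate left out. HIF-1β overlap of HIF-α peaks was 70.7 to 81.8% with 1 replicate left out. The HRE core share rose to 77.4% with a window of 200 bp, beside 48.5% of all merged sites at that window. No member passed the adjusted threshold under any setting tried, the smallest adjusted p being 0.0589. Same-numbered HIF-1α and HIF-2α libraries deviated together with correlations from -0.342 (HepG2) to 0.108, so the numbers were not taken as pairs; with a replicate block 0 members passed, and the adjusted p of FOSL2 between isoforms was 0.255.

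Some signs changed, none of them in a difference past the adjusted threshold. HIF-1α minus HIF-2α became 4.89 (10 kb window) and 1.59 (equal lists) for JUN and -0.0714 as a share called for BATF3; leaving out libraries gave -10.9 to 4.68 for JUN, -19.2 to 12.5 for FOS, -11.7 to 3.86 for ATF3 and -0.0507 to 11.8 for BATF3. HepG2 minus WT became 3.35 for JUN and 48.2 for FOS (10 kb window), -1.44 for ATF3 (equal lists), and -0.333 and -0.167 as a share called for JUNB and ATF3; leaving out a replicate gave -8.002 to 1.93 for JUN and -5.43 to 5.93 for ATF3. RCC4 minus WT became -5.09 for JUN (10 kb window) and -9.94 for FOSL1 (score of at least 100), with -24.2 for FOSL1 without replicate 1. FOSL2 at 48 h minus 6 h became -0.167 as a share called. The causes were not tested.

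Peak lists hold no reads, so weak binding below the calling threshold was not detectable.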
